A study of Homo sapiens with 5 samples.

Results

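G-quadruplex (G4) regions of human chromosome 11 were described from BG4 ChIP-seq of C4-2 cells. BG4 is an antibody that binds folded G4s, and C4-2 is an established line of human prostate cancer cells that can grow in the absence of androgen. The samples were 4 biological replicates of cross-linked, sonicated chromatin immunoprecipitated with BG4, all of the same line and with no treatment named in the labels, and an input library was not analysed here. Members were chosen by position and replicate support alone: peaks of the 4 replicates that shared at least 1 bp were merged, merged regions with a peak of at least 2 replicates were called recurrent, and those on chromosome 11 were kept. This gave 357 recurrent regions on chromosome 11, of 6835 in the whole series, where 63.0% of all merged regions were recurrent.

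G4s are four-stranded structures in which planar tetrads of guanines stack on each other, and they form where runs of guanine lie close together. Such runs are common in the GC-rich promoters of genes, so that maps of folded G4s tend to follow gene-dense chromatin. Chromosome 11 carries some of the most gene-dense stretches of the genome at the tip of its short arm (11p15.5) and on its proximal long arm (11q12-q13), together with long gene-poor stretches between them. The region from 0 to 3 Mb was taken for 11p15.5 and that from 60 to 72 Mb for 11q12-q13, and both were set beside the other bins of 3 Mb. Gene numbers per bin were not computed here.

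The 4 peak lists held 8036, 6192, 6805 and 4427 peaks for replicates 1 to 4, and 438, 332, 378 and 221 of these lay on chromosome 11. As the lists carry no read counts, the sequencing depth is unknown, and differences in peak number cannot be told apart from depth. Fold enrichment is the authors' ratio of the signal at a summit over its local background. All peak positions are on GRCh37, the build that the labels give. The methods name hg38, but peaks on chromosome 1 ended as far as 249201060, beyond the last hg38 gene annotation at 248937043.

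As sequence context, 8 RefSeq promoters are printed from genes whose listed start site window held a member found in 3 or 4 replicates. The promoters are on another build than the members and were not placed against them. A printed sequence therefore need not lie under a member. They were taken in the order of replicate number and then of mean fold enrichment, which gave 6 of the 9 such genes with a RefSeq promoter. Each runs from 250 bases before to 50 bases after the start site, on GRCh38.p14 and on the gene's own strand. Capitals mark a G4 motif, defined as 4 runs of GGG with loops of 1 to 7 bases of any kind, on either strand (GGG or CCC). These promoters are shown because genes with such members had promoters both with and without the motif.
SLC22A18 start 1, chr11:2902028-2902327, + strand: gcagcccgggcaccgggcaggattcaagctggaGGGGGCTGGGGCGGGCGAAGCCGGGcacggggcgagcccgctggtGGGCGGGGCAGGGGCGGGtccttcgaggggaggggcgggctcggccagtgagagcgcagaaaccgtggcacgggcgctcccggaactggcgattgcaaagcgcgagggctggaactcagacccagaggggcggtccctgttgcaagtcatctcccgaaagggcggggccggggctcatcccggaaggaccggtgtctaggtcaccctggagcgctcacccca
SLC22A18 start 2, chr11:2902170-2902469, + strand: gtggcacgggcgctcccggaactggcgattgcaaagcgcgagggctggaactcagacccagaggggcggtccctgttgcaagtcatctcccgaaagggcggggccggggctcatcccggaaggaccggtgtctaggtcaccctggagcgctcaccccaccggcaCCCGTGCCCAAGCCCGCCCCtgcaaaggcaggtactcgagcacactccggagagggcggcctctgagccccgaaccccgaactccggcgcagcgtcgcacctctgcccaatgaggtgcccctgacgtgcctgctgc
LDLRAD3, chr11:35943812-35944111, + strand: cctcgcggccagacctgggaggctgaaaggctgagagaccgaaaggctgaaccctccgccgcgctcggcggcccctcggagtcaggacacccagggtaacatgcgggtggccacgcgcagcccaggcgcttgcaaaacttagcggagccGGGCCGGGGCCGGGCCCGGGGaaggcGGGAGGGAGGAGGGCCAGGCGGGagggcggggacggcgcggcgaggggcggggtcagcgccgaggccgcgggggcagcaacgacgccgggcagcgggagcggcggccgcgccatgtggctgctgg
FUT4, chr11:94543671-94543970, + strand: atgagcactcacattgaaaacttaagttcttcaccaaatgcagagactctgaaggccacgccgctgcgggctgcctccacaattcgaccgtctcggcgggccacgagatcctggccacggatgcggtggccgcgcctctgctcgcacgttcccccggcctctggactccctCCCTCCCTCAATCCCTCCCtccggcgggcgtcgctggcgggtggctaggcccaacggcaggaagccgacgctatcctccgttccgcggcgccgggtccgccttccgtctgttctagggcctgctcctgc
PRRG4, chr11:32829677-32829976, + strand: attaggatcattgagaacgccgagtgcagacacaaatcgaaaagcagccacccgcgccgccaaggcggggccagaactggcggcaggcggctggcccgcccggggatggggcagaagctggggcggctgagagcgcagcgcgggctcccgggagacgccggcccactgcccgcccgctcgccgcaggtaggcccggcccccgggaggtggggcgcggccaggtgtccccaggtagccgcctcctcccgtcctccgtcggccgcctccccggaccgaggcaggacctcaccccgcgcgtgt
SCGB1D2, chr11:62241989-62242288, + strand: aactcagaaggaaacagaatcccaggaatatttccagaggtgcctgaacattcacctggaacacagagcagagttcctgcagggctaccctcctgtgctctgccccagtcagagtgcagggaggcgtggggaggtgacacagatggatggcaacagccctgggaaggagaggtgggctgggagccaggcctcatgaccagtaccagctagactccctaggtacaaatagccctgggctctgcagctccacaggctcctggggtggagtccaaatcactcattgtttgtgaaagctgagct
FAM111A start 1, chr11:59142606-59142905, + strand: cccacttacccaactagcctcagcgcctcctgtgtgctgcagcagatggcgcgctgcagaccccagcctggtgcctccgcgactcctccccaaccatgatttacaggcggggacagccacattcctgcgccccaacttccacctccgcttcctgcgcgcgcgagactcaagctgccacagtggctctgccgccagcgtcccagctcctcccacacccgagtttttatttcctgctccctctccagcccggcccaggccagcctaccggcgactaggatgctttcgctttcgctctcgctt
FAM111A start 2, chr11:59144612-59144911, + strand: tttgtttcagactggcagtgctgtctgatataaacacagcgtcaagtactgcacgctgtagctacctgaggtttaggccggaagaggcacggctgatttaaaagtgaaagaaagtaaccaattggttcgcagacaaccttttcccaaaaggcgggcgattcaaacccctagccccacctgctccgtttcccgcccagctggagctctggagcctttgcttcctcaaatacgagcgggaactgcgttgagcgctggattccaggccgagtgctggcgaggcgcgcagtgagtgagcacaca
The first SLC22A18 start site had 2 such motifs and the second had 1 on the opposite strand. The LDLRAD3 promoter held 2, from 101 to 81 and from 75 to 53 bases before the start. The FUT4 promoter held 1 motif on the opposite strand, from 79 to 61 bases before the start, and the member in its window had its nearest edge 207 bp after the window centre. PRRG4 held none with loops of up to 7 bases and 1 with loops of up to 12 bases. The promoters of SCGB1D2 and FAM111A held none with either loop length, so that 2 genes with a member in all 4 replicates had no motif in this window of sequence. Of the 3 genes not printed, MOB2 had 3 motifs at 1 of its 2 start sites, TP53I11 had 1 at 1 of its 3 start sites and TRIM44 had none, so that 5 of the 9 genes, and 3 of the 6 printed, held the motif at a start site. A match is a description of letters, and no match says only that these letters are absent from the 300 bases shown. Of 35116 RefSeq promoters, 8778 held the motif (25.0%), and on chromosome 11 it was 468 of 1893 (24.7%). RefSeq promoters were matched by gene name for 23 of the 59 gene names in the list of windows. SLC22A18 and C11orf85 were matched under the RefSeq symbols SLC67A1 and MAJIN. Of the 20 promoters of genes with a member in the window, 7 held the motif (35.0%, interval 15.4 to 59.2%), and of the 14 promoters of genes with a peak of 1 replicate only, 3 did (21.4%, 4.66 to 50.8%). Both intervals hold the share of all promoters. The 20 promoters came from 13 genes and the 14 from 10, so they are not independent and the intervals are too narrow. Median GC was 64.7% in the 20, 68.2% in the 14 and 58.7% in all promoters, and the shares were not matched for it.

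Recurrent G4 regions were concentrated in both gene-dense places. The 34 members in 11p15.5 and the 140 in 11q12-q13 made up 9.52% and 39.2% of all members, on 2.24% and 8.94% of the length of the chromosome. This is 11.3 members per Mb in 11p15.5, 11.7 per Mb in 11q12-q13 and 1.54 per Mb in the other bins, which held 183 members on 119 Mb. The density was thus 7.38 times that of the other bins in 11p15.5 and 7.60 times in 11q12-q13. Members covered 0.641% of 11p15.5, 0.683% of 11q12-q13 and 0.0831% of the other bins, and their median width was 506, 552 and 506 bp.

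**Figure D1:**
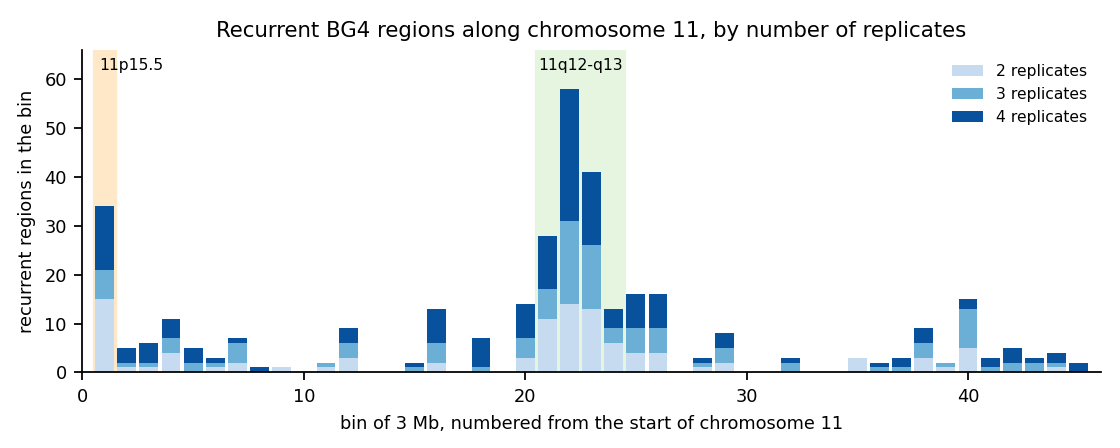
Recurrent regions in each of the 45 bins of 3 Mb of chromosome 11 (x axis, bin number; y axis, number of regions), with bars split by the number of replicates with a peak. Bin 1 (11p15.5) held 34 regions and bin 22 in 11q12-q13 held 58, while no bin outside the shaded places held more than 16.

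The excess was present in each replicate on its own. In 11p15.5 replicates 1 to 4 had 41, 30, 36 and 21 peaks, which is 13.7, 10, 12 and 7.0 peaks per Mb. In 11q12-q13 they had 164, 126, 145 and 82 peaks, or 13.7, 10.5, 12.1 and 6.83 per Mb. In the other bins they had 233, 176, 197 and 118 peaks, or 1.95, 1.48, 1.65 and 0.990 per Mb. Replicate 4 was lowest and replicate 1 highest in every place, but the values of the gene-dense places and the other bins did not overlap. Within a replicate the density in 11p15.5 was 7.02 ± 0.202 times that of the other bins (SD, n = 4; 6.77 to 7.26), and in 11q12-q13 it was 7.08 ± 0.177 times (6.90 to 7.31). On the log2 scale the differences were 2.81 ± 0.0416 and 2.82 ± 0.0359, higher in 4 of 4 replicates each (exact sign-flip permutation test, two-sided p = 0.13, adjusted p = 0.219). With 4 replicates this test cannot give a p below 0.13, so that no comparison here could pass a threshold of 0.05. The ratio of the density in 11q12-q13 to that in 11p15.5 was 1.01 ± 0.0308 (SD, n = 4).

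Neither place was evenly filled. In 11p15.5, 24 of the 34 members lay in the first Mb, 7 in the next and 3 in the last. In 11q12-q13 the bin from 63 to 66 Mb held 58 members (19.3 per Mb), the most of the 45 bins, followed by 41 members from 66 to 69 Mb and 28 from 60 to 63 Mb. The bin from 69 to 72 Mb held 13, fewer than the 14 to 16 members of 4 bins outside the gene-dense places. In steps of 1 Mb, 33 members lay between 65 and 66 Mb, the highest value on the chromosome, against 2 between 60 and 61 Mb, 3 between 69 and 70 Mb and 2 between 70 and 71 Mb. The 6 successive bins of 1 Mb with the most members, chosen after their values were seen, ran from 62 to 68 Mb and held 110 of the 140 members, or 18.3 per Mb against 5.00 per Mb in the rest of 11q12-q13. The members of 11q12-q13 thus crowded into its central part.

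Of the 40 other bins of 3 Mb, 10 held no member and the median was 3. The fullest were those from 72 to 75 Mb and from 75 to 78 Mb, with 16 members each, which adjoin 11q12-q13. Next came the bin from 117 to 120 Mb with 15 members, of which 11 lay between 118 and 119 Mb, and the bin from 57 to 60 Mb with 14. Members were absent from chr11:35966052-44586610 (8.62 Mb), chr11:24518757-32605095 (8.09 Mb) and chr11:86749390-94277224 (7.53 Mb), the 3 longest stretches without one. These stretches were not fully empty, since they held 3, 2 and 3 regions found in 1 replicate. The median gap from a member to the next was 20.0 kb in 11p15.5, 29.1 kb in 11q12-q13 and 207 kb in the other bins.

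Median fold enrichment overlapped between the gene-dense places and the other bins. For peaks inside members, the median fold enrichment in replicates 1 to 4 was 8.34, 7.81, 8.01 and 6.58 in 11p15.5. It was 8.09, 7.53, 7.86 and 7.38 in 11q12-q13, and 8.39, 8.16, 7.86 and 6.97 in the other bins. These values overlap between all places, and replicate 4 was lowest in each. The difference from the other bins was −0.161 ± 0.253 in 11p15.5 (SD, n = 4; higher in 1 and lower in 3 replicates; exact permutation p = 0.375, adjusted p = 0.438). In 11q12-q13 it was −0.130 ± 0.447 (higher in 1, lower in 2 and equal in replicate 3; exact permutation p = 0.75, adjusted p = 0.750), between −0.632 and 0.417 in single replicates. Both differences were smaller than the spread between replicates, and the sign of each depended on the setting. Both were above 0 when only members with all 4 replicates were counted (0.742 and 0.0685), when the mean stood in place of the median (0.416 and 0.313), and, for 11q12-q13, without replicate 2 (0.142). In 11p15.5 it was −0.0352 without replicate 3. The difference kept its negative sign under 13 of 17 alternatives in 11p15.5 and 12 of 17 in 11q12-q13. With −log10 q in place of fold enrichment, it was −1.19 in 11p15.5 and also negative in 11q12-q13. The exact permutation p was 0.13 for each, unadjusted, which is the smallest value this test can give.

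**Figure D2:**
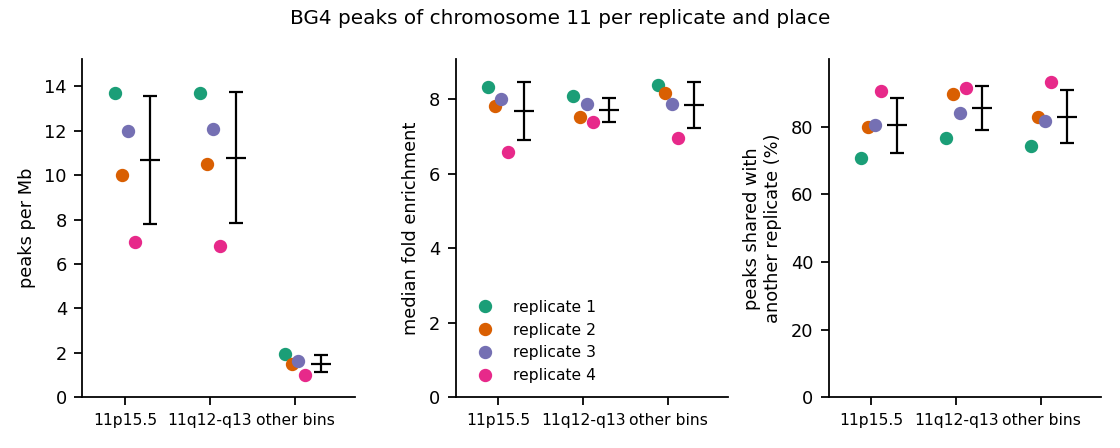
Peaks per Mb (left), median fold enrichment of peaks in members (middle) and percent of peaks shared with another replicate (right) for the 3 places of chromosome 11, one point per replicate, with the mean and SD over 4 replicates in black. Density was 7.02 to 7.08 times that of the other bins on average, while the other measures overlapped between places.

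The share of members found in every replicate had overlapping intervals in the 3 places. A peak was present in all 4 replicates in 148 of the 357 members, or 41.5% (interval 36.3 to 46.8%), which is the share in the whole series (41.5%). It was 13 of 34 members in 11p15.5 (38.2%, 22.2 to 56.4%), 57 of 140 in 11q12-q13 (40.7%, 32.5 to 49.3%) and 78 of 183 in the other bins (42.6%, 35.4 to 50.1%). Without the group of 7 members described below, the share in the other bins was 40.9%. Support by 3 replicates was found in 6, 39 and 62 members, and by 2 in 15 of 34, 44 of 140 and 43 of 183. Support by only 2 replicates was thus most frequent in 11p15.5 and least frequent in the other bins. Before the limit of 2 replicates, chromosome 11 had 599 merged regions, of which 59.6% were recurrent (55.5 to 63.6%) against 63.0% in the whole series. That share was 55.7% in 11p15.5, 63.3% in 11q12-q13 and 57.7% in the other bins.

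The share of a replicate's peaks that overlapped a peak of another replicate was 70.7, 80.0, 80.6 and 90.5% in 11p15.5 for replicates 1 to 4. It was 76.8, 89.7, 84.1 and 91.5% in 11q12-q13, and 74.2, 83.0, 81.7 and 93.2% in the other bins. The share was highest in replicate 4, which had the fewest peaks, and lowest in replicate 1, which had the most, in each place. In 11p15.5 it was 2.60 percentage points below that of the other bins (difference −2.60 ± 1.01, SD, n = 4; lower in 4 of 4; exact permutation p = 0.13, adjusted p = 0.219). Leaving out replicates 1 to 4 in turn gave −6.79, −5.46, −8.71 and −3.79, so that the size of this difference is not fixed. In 11q12-q13 the difference was 2.49 ± 3.46 percentage points (higher in 3 of 4; exact permutation p = 0.25, adjusted p = 0.350), and without replicate 2 it was −1.15.

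Members that missed 1 replicate mostly missed replicate 4, the one with the fewest peaks. Of the 107 members with 3 replicates, 71 lacked replicate 4, 21 lacked replicate 2, 10 lacked replicate 3 and 5 lacked replicate 1. Among the 102 members with 2 replicates, the pair of replicates 1 and 3 was the most frequent with 39 members and that of replicates 2 and 4 the least with 2. Replicates 1 to 4 had a peak in 325, 280, 309 and 203 of the members. Pearson's r of fold enrichment between replicates, with 0 where a replicate had no peak, averaged 0.620 over the 357 members, from 0.554 for replicates 2 and 4 to 0.681 for replicates 1 and 2. It averaged 0.647 over the 34 members of 11p15.5, 0.678 over the 140 of 11q12-q13, 0.563 over the 183 of the other bins and 0.769 over the 148 members with all 4 replicates. The regions are not independent replicates, so these are descriptions.

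The mean fold enrichment over the replicates with a peak had a median of 6.57 in members with 2 replicates, 7.09 with 3 and 9.47 with 4. In 11p15.5 it was 6.71, 6.60 and 10.5, so that members with 3 replicates were not above those with 2 there. Fold enrichment and replicate number come from the same peak calls, so they are not independent measures. Just outside the limit, the 242 regions of 1 replicate had a median of 5.63, with 5.68 in 11p15.5, 5.85 in 11q12-q13 and 5.60 in the other bins. Among members with 4 replicates the median of the mean fold enrichment was 10.5 in 11p15.5, 9.07 in 11q12-q13 and 9.66 in the other bins. Summits of these members lay close together, with a median distance between the outermost of the 4 of 99.0 bp, and within 100 bp in 78 of 148 members (52.7%).

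**Figure D3:**
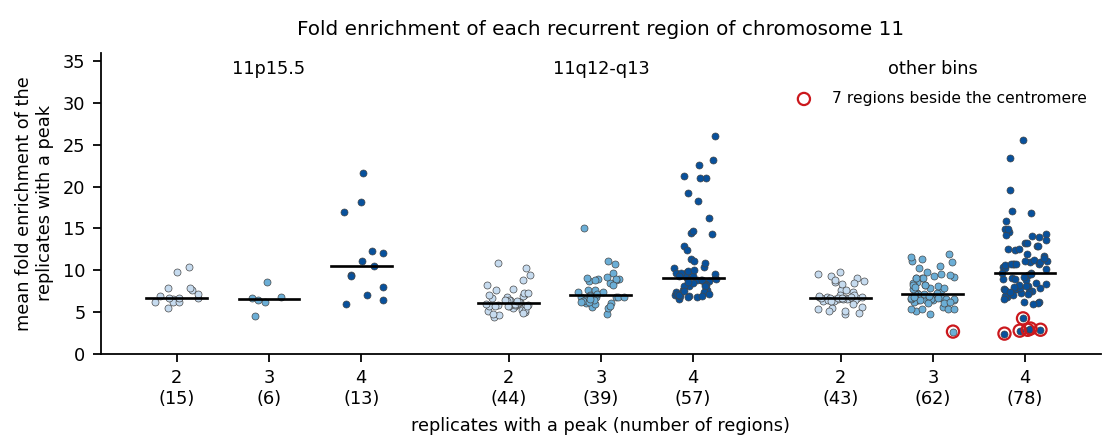
Mean fold enrichment over the replicates with a peak (y axis) for each of the 357 members, by place and number of replicates (x axis, with the number of members), with a line at the median. Members with 4 replicates reach the highest values in every place, and the 7 ringed regions beside the centromere lie below the others with the same support.

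The highest mean was similar in 11q12-q13 (26.0 ± 3.93) and the other bins (25.5 ± 5.11), and lower in 11p15.5 (21.6 ± 5.17). The 5 strongest named for each place are the top of unlike numbers of members with 4 replicates. These were 13 in 11p15.5, 57 in 11q12-q13 and 78 in the other bins. In 11q12-q13 the region chr11:66725533-66726425 had a fold enrichment of 29.7, 25.1, 28.4 and 20.9 in replicates 1 to 4 (mean 26.0 ± 3.93), the highest mean on the chromosome. The region chr11:67572691-67573754 had 24.6, 23.9, 26.9 and 17.5 (23.2 ± 4.05), and chr11:66886153-66887042 had 27.3, 19.0, 24.0 and 20.1 (22.6 ± 3.78). Both lay, like the first, between 66 and 68 Mb. The regions chr11:63606009-63606874 and chr11:71497496-71498756 followed with means of 21.2 ± 3.06 and 21.0 ± 4.52. The region chr11:66725533-66726425 was above chr11:67572691-67573754, chr11:66886153-66887042 and chr11:63606009-63606874 in each replicate. It was below chr11:71497496-71498756 in replicate 4 only, at 20.9 against 22.5. Each later pair of neighbours in this order changed places in at least 1 replicate.

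In 11p15.5 the strongest region was chr11:575617-576471, with 25.5, 17.4, 26.7 and 17.0 (21.6 ± 5.17). It closed a group of 3 members, each found in 4 replicates, at chr11:560583-576471 (15.9 kb). The other members of that group were chr11:568116-569225 with a mean of 12.3 ± 4.49 and chr11:560583-561067 with 12.1 ± 3.40. Between those in strength came chr11:506573-507602 (18.1 ± 2.60) and chr11:1410476-1411351 (16.9 ± 5.34). Of these 5 strongest members of 11p15.5, 4 thus lay in its first Mb, where most of its members were.

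In the other bins the highest mean was that of chr11:3443595-3444665, with 31.3, 28.0, 23.0 and 19.9 (25.5 ± 5.11), which is close to the highest of 11q12-q13. The region chr11:44586611-44587298, with 24.9, 28.2, 24.5 and 16.1 (23.4 ± 5.15), stood at the end of the longest stretch without a member. The region chr11:108093291-108093898 had 31.5 in replicate 1 but 17.2, 13.9 and 15.6 in the others (19.5 ± 8.07). It was followed by chr11:122932763-122933690 (17.1 ± 5.94) and chr11:6255815-6256500 (16.9 ± 4.97). None of these 15 members lay in a listed gene window.

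Members often stood near each other. With 10 kb as the largest gap, 97 of the 357 members (27.2%) fell into 38 groups, 26 of them pairs and 8 of 3 members. The share was 14 of 34 in 11p15.5 (41.2%), 55 of 140 in 11q12-q13 (39.3%) and 28 of 183 in the other bins (15.3%). A share within a fixed distance rises with density, so these shares cannot be read apart from the density of each place. Clustering beyond density was not tested, since no random placement was run. Next to the largest group, which is described below, came 2 groups of 5 members, one in 11q12-q13 at chr11:62358977-62389863 (30.9 kb) and one at chr11:118788303-118801247 (12.9 kb). The latter held one of the 5 widest members, chr11:118788303-118789477, of 1175 bp. Only 14 members reached a width of 1 kb, with 3 in 11p15.5, 6 in 11q12-q13 and 5 in the other bins. The widest, chr11:58345422-58346741, spanned 1320 bp and had nearly equal fold enrichment in the replicates (7.78, 7.53, 7.59 and 7.14), but its summits lay up to 747 bp apart.

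The largest group had low fold enrichment, and its members with 4 replicates had the lowest means of all members with that support. It held 7 members within 12 kb at chr11:51579355-51591339, next to the centromere. A peak was found in 4 replicates in 6 of the 7 and in 3 replicates in the other. The first member, chr11:51579355-51579782, had a fold enrichment of 4.19, 4.07, 3.99 and 4.72 in replicates 1 to 4. The next, chr11:51580181-51580709, had 2.86, 2.81, 2.95 and 2.90. The replicates were thus nearly equal, with replicate 4 not the lowest.

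Over the 27 peaks of this group, fold enrichment was 2.1 to 4.72, and the −log10 of the q-value was 9.25 to 55.3 with a median of 17.6, against 8.88 for the peaks of the other members. Low enrichment thus stood beside small q-values. These were the 6 members with 4 replicates that had a mean fold enrichment below 5, the next lowest being at 5.98. All 19 peaks of members with a fold enrichment below 3 lay in this group. The median coefficient of variation between replicates was 8.55% in these 6 and 22% in the other members with 4 replicates. The part of their position beside the centromere in these values was not tested. Without the group the density was 7.68 times that of the other bins in 11p15.5 and 7.90 times in 11q12-q13.

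Gene names could be given to members only through the study's list of windows of 4000 bp around start sites. The study drew this list from these samples, leaving out places also found in HepG2 and K562 cells, so that each window holding a peak follows from its making and is no evidence of its own. On chromosome 11 the list had 59 windows, of which 31 held a member and 28 held a peak of 1 replicate only. The 28 came from replicate 1 in 7 windows, replicate 2 in 10, replicate 3 in 8 and replicate 4 in 3. Windows with a member held 24 of the 357 members (6.72%), of which 10 covered the centre and 18 had an edge within 1 kb of it. By place it was 2 members in 11p15.5 (5.88%), 3 in 11q12-q13 (2.14%) and 19 in the other bins (10.4%). The listed windows thus hold few of the members in the gene-dense places.

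In 9 of these members a peak was present in all 4 replicates. GALNT18, an enzyme of the family that starts O-linked glycosylation, had the highest mean, with 12.4, 9.46, 13.6 and 9.51 in replicates 1 to 4 (11.2 ± 2.09) at chr11:11643397-11643890. ZBTB16, a zinc finger transcriptional repressor also known as PLZF, had 13.2, 9.40, 10.3 and 11.6 (11.1 ± 1.66) at chr11:113930053-113930486. Its summits lay from 76 bp before to 16 bp after the window centre, and a weaker member with 5.14 and 5.04 in replicates 2 and 3 stood further along in the same window. These members ranked 45th and below among the 148 with 4 replicates, so that the strongest signal of the chromosome lay outside the listed windows.

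SLC22A18, a transporter gene of the imprinted 11p15.5 cluster, had 11.8, 13.9, 9.36 and 7.01 (10.5 ± 2.98) at chr11:2922935-2923680. That member only touched the end of the window, with 17 bp of overlap and its nearest edge 1983 bp after the centre. Its summits lay 2376 to 2495 bp after the centre, outside the window. IGSF9B, an adhesion molecule of the immunoglobulin superfamily, shared its member with AP000911.1 on chr11:133826666-133827124, at 12.8, 6.79, 8.98 and 8.06 (9.15 ± 2.57). SCGB1D2, a small secreted protein of the secretoglobin family, was the one window gene of 11q12-q13 with 4 replicates, at chr11:62009473-62009949 with 12.8, 8.97, 5.17 and 7.94 (8.73 ± 3.17). Its summits lay 11 to 82 bp after the window centre, although its promoter held no motif.

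FAM111A, a protease that acts at replication forks, had 8.29, 8.25, 5.93 and 6.97 (7.36 ± 1.14) at chr11:58909985-58910621, a member that also lay in the windows of AP001258.4 and AP001258.5. LDLRAD3, a membrane protein of the low-density lipoprotein receptor family, had 9.09, 5.67, 6.93 and 5.74 (6.86 ± 1.6) at chr11:35965397-35966051, with summits 113 to 373 bp after the centre. RP11-732A19.2 had 5.92, 6.72, 5.44 and 6.82 at the edge of its window. The values of these 3 members overlap. The member at FAM111A was above that at RP11-732A19.2 in each replicate, and the place of the member at LDLRAD3 changed with the replicate.

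MTRNR2L8, a humanin-like gene that resembles the mitochondrial 16S ribosomal RNA, held 2 members, one with 6.73, 6.04, 5.89 and 5.30 and one with 6.53, 8.08 and 6.67 in replicates 1 to 3. MTND1P36 and MTND2P26, nuclear pseudogenes of mitochondrial dehydrogenase subunits, shared a member with 4.84 and 5.44 in replicates 1 and 3 that also lay in the window of RP11-37O16.8. Reads of these genes can also come from the mitochondrial genome, so their values are uncertain.

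Among members with 3 replicates, FUT4, a fucosyltransferase that makes the Lewis x antigen, and its neighbour PIWIL4, of the PIWI family that binds small RNAs, shared 1 member with 9.34, 6.35 and 7.59 in replicates 1, 3 and 4. PRRG4, a transmembrane protein with a Gla domain, had 7.07, 8.84 and 5.62 in the same replicates, and P4HA3, a subunit of the prolyl hydroxylase that modifies collagen, had 8.65, 5.39 and 4.70 in a member shared with RP11-632K5.3. Replicate 2 had no peak at these 3 members. TP53I11 (4.30, 7.28 and 7.78), TRIM44 (4.26, 6.12 and 3.99), MOB2, a partner of NDR kinases (6.99, 6.14 and 7.18), and MIR4489 (8.99, 6.79 and 5.32) had a peak in replicates 1 to 3 and none in replicate 4. The members at MOB2 and MIR4489 had their nearest edge 1639 and 1621 bp from the centre, so that they lay at the far side of their windows. A peak of 2 replicates was found at LUZP2, KLHL35, RN7SL688P and RP11-849H4.4, and at 1 member shared by GLYATL2, GLYATL1 and AP001652.1, with single values from 4.29 at LUZP2 to 10.8 at KLHL35.

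**Figure D4:**
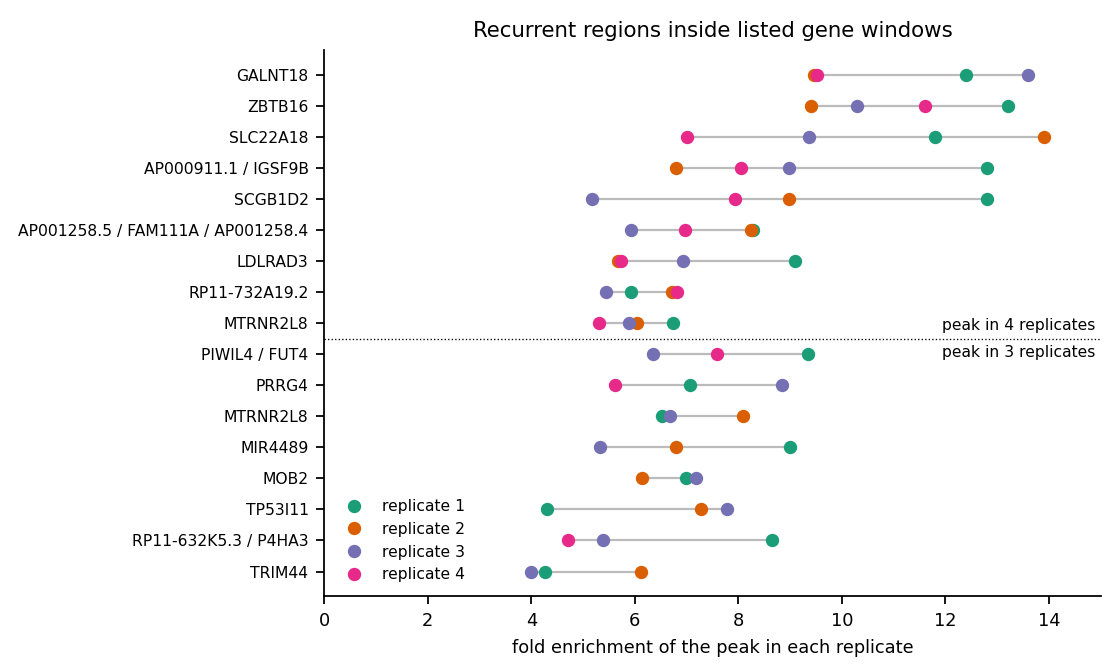
Fold enrichment of the peak in each replicate (x axis, points coloured by replicate) for the 17 members in listed gene windows with a peak in 4 (above the dotted line) or 3 replicates, with a grey line from the lowest to the highest. The highest single value is 13.9 at SLC22A18, and TRIM44 has the lowest at 3.99.

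Members with 4 replicates inside windows had a median mean fold enrichment of 8.73 (n = 9, 5.99 to 11.2), and those outside had 9.53 (n = 139). Of the 242 regions of 1 replicate on the chromosome, 27 lay in windows (11.2%), with a fold enrichment of 4.29 to 8.0 and a median of 5.63. They were found at genes such as SIGIRR (6.12 in replicate 2), KCNQ1 (4.49 in replicate 1) and AHNAK (5.81 in replicate 3), named after their values were seen. The lowest and the highest of these values stood at ST14 (4.29 in replicate 3) and RP11-158I9.1 (8.0 in replicate 2).

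Beside the other chromosomes, chromosome 11 was of middle to high density. It had 2.66 recurrent regions per Mb against 2.09 on the others, and ranked 7th of 24, in each of the 4 replicates as well. Its share of members with 4 replicates, 41.5%, lay within the interval of the other chromosomes (41.4%, 40.2 to 42.7%). The median fold enrichment of peaks in recurrent regions was 7.76 ± 0.488 on chromosome 11 and 7.86 ± 0.481 on the others (SD, n = 4). The difference was −0.0910 ± 0.0360, lower in 4 of 4 replicates (exact permutation p = 0.13, adjusted p = 0.219).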

How the data were processed

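BG4 ChIP-seq was measured in 4 biological replicates of C4-2 cells; the input library was not analysed here. Per the submitters' processing notes, the tools were bcl2fastq 1.8.4, Bowtie2 2.2.5, SAMtools 1.11 and MACS2 2.1.1 with build hg19, and the authors deposited a list of peaks for each replicate. Fold enrichment was deposited as a ratio over the local background. The deposited p-values and q-values are −log10 values, and the deposited score follows the q-value and was not used further.

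Peaks sharing at least 1 bp were merged, and members held a peak of at least 2 replicates. The members, places and lists were chosen with earlier results of these data known. The regions named are in each place the 5 of highest mean fold enrichment with a peak in 4 replicates, all regions touching a listed gene window, the 5 widest, the 3 largest groups and the 3 longest stretches with no member. Window names and positions came from the study's list. Comparisons were exact two-sided sign-flip permutation tests over 4 replicates with Benjamini-Hochberg adjustment over 7 tests. Intervals are exact binomial at 95% and cover counting error only. The alternatives were other replicate minimums, overlaps, q limits, peak numbers, place edges, statistics and window widths, and leaving out each replicate. The merging and counting steps were run on 774 simulated regions placed well apart, and all 10 quantities were recovered. Close or chained peaks were not simulated, and grouping, window overlap and fold enrichment were not checked in this way. The scripts ran under Python 3.11.15 with scipy 1.17.1, pandas 2.3.3, numpy 2.4.6 and, for plots, matplotlib 3.10.9.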

Additional observations from a re-analysis of the deposited data

How the results depend on the processing

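The higher density of both gene-dense places kept its direction under every alternative run. In 11p15.5 the ratio of recurrent regions over the other bins (7.38) was 6.62 with all 4 replicates, 5.39 with at least 3, 7.65 with at least 1, 6.42 at a −log10 q of at least 4 and 5.99 with the 4000 strongest peaks per replicate. It was 6.38 with places 1 Mb wider at each edge, 9.66 with places 1 Mb narrower, 6.45 without 3 Mb bins that hold no peak, and 6.11 to 7.0 without 1 replicate. In 11q12-q13 (7.60) these values were 7.26, 6.81, 6.93, 7.02, 6.78, 7.0, 8.11, 6.64 and 7.10 to 7.45, and it was 7.31 with summits within 200 bp. Without the group of 7 members beside the centromere, an alternative chosen after seeing the data, the ratios were 7.68 and 7.90. The difference in fold enrichment turned positive in 11p15.5 and 11q12-q13 with all 4 replicates (0.742 and 0.0685), at least 3 (0.279 and 0.0350), the 4000 strongest peaks (0.540 and 0.213) and the mean (0.416 and 0.313). Without 1 replicate it was −0.182 to −0.0352 in 11p15.5 and −0.306 to 0.142 in 11q12-q13. Without the group of 7 members it was −0.373 in 11p15.5 and −0.342 in 11q12-q13 (exact permutation p = 0.13 and 0.25, unadjusted). With −log10 q in place of fold enrichment it was −1.19 in 11p15.5 and also negative in 11q12-q13 (exact permutation p = 0.13 each, unadjusted). The difference in shared peaks in 11q12-q13 (2.49) was −1.11 at the stricter q limit, −0.594 with the 4000 strongest peaks and −1.15 to 3.50 without 1 replicate. In 11p15.5 (−2.60) it was −8.71 to −3.79 without 1 replicate. The cause was not tested. Without 1 replicate, the share of members with every remaining replicate was 51.6 to 58.3% in 11p15.5, 50.9 to 65.2% in 11q12-q13 and 53.3 to 66.5% in the other bins, since 3 replicates then sufficed. The number of members (357) was 148 with all 4 replicates, 599 with at least 1 and 231 with the 4000 strongest peaks. Members within 10 kb of another (27.2%) were then 11.5%, 39.1% and 17.7%, and 20.0% with at least 3 replicates, 21.8% at the stricter q limit and 22.3 to 26.8% without 1 replicate. Windows with a member (31) were 12, 59 and 18 under the same 3 settings. No paired analysis was possible because the samples form 1 group, with no other group to pair; the places were compared within each replicate. Depth is unknown, and 4 replicates cannot give a p below 0.13.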
